A study of Mus musculus with 3 samples.

Results

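The mitochondrially encoded genes were taken as every gene of the merged single-cell table whose symbol starts with mt-. This rule gave 33 of 23271 genes, of which 2 were rRNAs, 13 were mRNAs and 18 were tRNAs. The mouse annotation places 37 genes on the mitochondrial chromosome, and the tRNA genes mt-Td, mt-Tk, mt-Tg and mt-Th were not analysed here. Each value below comes from cells with at least 1000 and fewer than 8000 UMIs (unique molecular identifiers, the tags that count captured transcripts) and at least 400 genes.

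RNA was captured from cells of mouse small intestinal organoids, cultures of epithelium that self-organize in gel, at day 6 of culture. All media held EGF, Noggin and R-spondin 1 (ENR). The ENR group received nothing else, the ENR+CD group also received 3 µM CHIR99021, which activates Wnt signaling by inhibiting GSK3, and 10 µM DAPT, which blocks Notch cleavage, and the ENR+CV group received 3 µM CHIR99021 and 1 mM valproic acid, a histone deacetylase inhibitor. Organoids in all groups had first been expanded as ENR+CV cultures, and each group was 1 Seq-Well array with cells of 6 wells from 1 donor mouse. With 1 library per condition, condition and array cannot be told apart, no test between conditions was possible, and the intervals given are 95% counting intervals that say nothing of the spread between cultures.

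Before the results, a conflict in the labels has to be stated. The merged table calls 1092 cells ENR+CV and 2506 cells ENR+CD, yet the single-library table that holds those 1092 cells is attached to the ENR+CD sample, and the one with the 2506 cells to the ENR+CV sample. The names of the merged table are used here. Under the attachments, every ENR+CD value below would be an ENR+CV value and the reverse, while the ENR values would stay. With the merged names, the kept cells of each group came within 1 cell of the group sizes in the methods, which the exchanged names did not. The library with the merged name ENR+CD, whose additives are those used to drive Paneth differentiation, had 10.6% of its UMIs on the 13 Defa genes, the antimicrobial defensins of Paneth cells, against 0.365% for the other. Groups were not assigned from these values. Where 3 values follow one another without names, they are those of ENR, ENR+CD and ENR+CV in that order. The kept cells numbered 2545, 2383 and 985, with 2942252 to 5095089 UMIs per library. The median cell had 1553, 1543 and 2499 UMIs, and the libraries had been read 15.3, 18.3 and 10.2 times per UMI. At most 1 kept barcode was shared between any pair of libraries. All 5 epithelial markers (Epcam, Cdh1, Vil1, Krt8 and Krt19) had UMIs in each library, at a summed level of 2924 to 3218 CPM (UMIs per 1000000 UMIs of the library). The immune list (Ptprc, Cd3e, Cd79a, Lyz2 and Csf1r) summed to 51.0, 231 and 9.86 CPM, with Cd3e at 0 throughout. In ENR+CD 2 of its genes had UMIs. Since the study names Lyz2 among its Paneth signature genes, this sum cannot tell immune cells from Paneth cells. The stromal list summed to 53.2, 78.2 and 255 CPM.

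The mitochondrial chromosome is a small circle that is transcribed on both strands into long RNAs, which are then cut at the tRNAs that stand between most of the other genes. Its mRNAs encode core subunits of oxidative phosphorylation: the Nd genes of complex I, Cytb of complex III, the Co genes of complex IV and the Atp genes of complex V. Its rRNAs form the mitochondrial ribosome, and its tRNAs read the code of these mRNAs. The rRNAs and most mRNAs carry short poly(A) tails, by which oligo-dT beads can capture them, with mt-Nd6 known as an exception. All other subunits, the factors that copy and process mitochondrial RNA and the ribosomal proteins are encoded in the nucleus.

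The tRNA genes are shown because their counts moved apart from those of the mRNAs and rRNAs. The 6 tRNA genes with 100 or more UMIs in ENR+CV are printed 5′ to 3′ as the annotated gene on GRCm38, with the anticodon in capitals. They carry cysteine (mt-Tc, chrM:5192-5257, minus strand), glutamine (mt-Tq, chrM:3772-3842, minus), alanine (mt-Ta, chrM:5018-5086, minus), proline (mt-Tp, chrM:15356-15422, minus), valine (mt-Tv, chrM:1025-1093, plus) and methionine (mt-Tm, chrM:3845-3913, plus).
mt-Tc: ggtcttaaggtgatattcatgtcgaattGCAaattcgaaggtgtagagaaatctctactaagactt
mt-Tq: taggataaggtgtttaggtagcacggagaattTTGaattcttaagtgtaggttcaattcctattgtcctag
mt-Ta: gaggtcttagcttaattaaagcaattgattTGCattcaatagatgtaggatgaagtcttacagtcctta
mt-Tp: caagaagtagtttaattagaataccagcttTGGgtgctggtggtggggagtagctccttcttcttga
mt-Tv: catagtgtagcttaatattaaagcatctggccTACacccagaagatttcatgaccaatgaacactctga
mt-Tm: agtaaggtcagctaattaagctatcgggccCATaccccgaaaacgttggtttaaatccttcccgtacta

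The mRNA genes need sequences for another reason: the nuclear genome holds copies of several of them. On chromosome 1, 7 pseudogenes on the minus strand lie within 4663 bases (chr1:24611535-24616197) and copy mt-Co1, mt-Co2, mt-Atp6, mt-Co3, mt-Nd3, mt-Nd4l and mt-Nd4 in part or whole. The copy of mt-Co2 (Gm28661) matched it over 681 of its 684 bases with 0 mismatches. The last 60 matched bases, chrM:7634-7693 and chr1:24614885-24614944, show that a read from here carries no base that tells the genes apart.
mt-Co2: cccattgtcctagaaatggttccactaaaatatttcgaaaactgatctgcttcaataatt
Gm28661: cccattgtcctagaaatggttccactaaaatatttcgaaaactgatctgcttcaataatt
In mt-Nd3 and its copy Gm28438, 1 of 345 aligned bases differed, T3C with mt-Nd3 first and positions counted from the start of the gene. It is in capitals in the first 33 bases (chrM:9459-9491 and chr1:24613087-24613119).
mt-Nd3: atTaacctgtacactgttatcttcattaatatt
Gm28438: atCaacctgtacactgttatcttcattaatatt

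The mitochondrial share of the transcriptome was largest in ENR, lower in ENR+CD and lowest in ENR+CV when all kept cells were summed, and among shallow cells the latter 2 did not keep this order. In ENR, 839742 UMIs or 16.48% (16.45 to 16.51) were mitochondrial. In ENR+CD this was 393604 UMIs or 8.67% (8.65 to 8.70), and in ENR+CV 114423 UMIs or 3.89% (3.87 to 3.91). The ENR share was thus 1.90-fold that of ENR+CD (1.89 to 1.91) and 4.24-fold that of ENR+CV (4.21 to 4.26), and ENR+CD had 2.23-fold the share of ENR+CV (2.21 to 2.25). Counted per cell, the mean was 330, 165 and 116 mitochondrial UMIs, so the order was the same in UMIs although ENR+CV cells were the deepest. In kept cells below 2000 UMIs, a limit chosen after seeing the data, ENR+CD had 1.02-fold the share of ENR+CV and ENR+CV had 0.498 of that of ENR. Among barcodes of 1000 to 1499 UMIs it was ENR+CD that was lower, with 8.86% against 10.5%. The pooled shares of reads over all kept cells were 23.4%, 12.6% and 3.67%.

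Paneth cell products take up room in this total. The 13 Defa genes held 2.93% of UMIs in ENR beside the 10.6% and 0.365% above. Outside them the mitochondrial share was 17.0%, 9.70% and 3.90%. Outside a wider list of 40 Paneth products it was 17.3%, 10.9% and 3.92%, and the ratio of ENR to ENR+CD went from 1.90 to 1.59. The ENR+CD share was thus lower than that of ENR with either denominator.

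The 3 RNA classes did not follow one another. The rRNA share was 13.1%, 6.48% and 2.92%, and the mRNA share was 3.41%, 2.19% and 0.890%. The tRNAs were rare, with 120.7 CPM in ENR and 56.2 CPM in ENR+CD, but reached 775 CPM in ENR+CV. Relative to ENR, the ENR+CV library thus had 4.47-fold fewer rRNA UMIs (4.44 to 4.503), 3.83-fold fewer mRNA UMIs (3.78 to 3.88) and 6.42-fold more tRNA UMIs (5.87 to 7.03). For each 1000 mitochondrial mRNA UMIs there were 3.55, 2.57 and 87.1 tRNA UMIs. In ENR+CD the rRNAs were 2.02-fold lower than in ENR (2.01 to 2.03) and the mRNAs 1.56-fold (1.54 to 1.57), so the intervals of the 2 classes were apart, with 3.84, 2.96 and 3.28 rRNA UMIs per mRNA UMI.

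Genes were called higher or lower at a difference in CPM of 2-fold or more, provided that the 2 Poisson intervals were apart and the 2 libraries together had 20 UMIs or more. From ENR to ENR+CD, 0 of the 26 mitochondrial genes with enough UMIs were higher and 7 were lower, against 10.8% and 9.35% of the 12197 genes tested. These 7 were mt-Rnr2, mt-Nd4l and 5 tRNAs. Outside the Defa genes 3 were lower (7.63% of all genes), outside the Paneth products 2 (6.31%) and in cells of 2000 or more UMIs 2 of 25 (9.76%), all of them tRNAs, so that most of the calls ended there, mt-Rnr2 among them at 0.529, 0.581 and 0.506 of ENR. From ENR to ENR+CV, 9 of 28 were higher and 13 were lower, against 15.9% and 5.80% of 11962 genes. All 9 that were higher were tRNAs, and the 13 that were lower were mt-Rnr2 and 12 mRNAs. In cells below 2000 UMIs, 9 of 24 were higher (background 12.1%), all tRNAs but with mt-Ti and mt-Tl1 in place of mt-Tl2 and mt-Ts2, and 8 lower (4.54%), which were mt-Rnr2, mt-Cytb, mt-Nd4, mt-Nd4l, mt-Nd6, mt-Co2, mt-Co3 and mt-Atp6. ENR+CD compared with ENR+CV had 11 of 26 genes higher (background 7.10%) and 10 lower (18.9%). The 11 were mt-Rnr2 and 10 mRNAs, and the 10 were tRNAs. In cells below 2000 UMIs, 5 of 23 were higher (background 5.13%), which were mt-Atp6, mt-Co2, mt-Co3, mt-Nd4l and mt-Nd6, so that mt-Rnr2 was no longer called. Another 10 were lower there (14.6%), mt-Rnr1 and otherwise tRNAs. Of the mRNAs called in cells below 2000 UMIs, mt-Co2, mt-Co3, mt-Atp6 and mt-Nd4l have nuclear copies. Their fold differences are given below as uncertain. The median log2 ratio of all tested genes was -0.01 for ENR+CD over ENR and 0.33 for ENR+CV over ENR, while that of the mitochondrial genes was -0.67 and -0.91. Set relative to the median ratio of 1.31 over the 5005 genes with 100 or more UMIs in each library, the mitochondrial ratio of ENR+CV over ENR was 0.180 and the tRNA ratio 4.90. The comparisons share libraries and are not independent of each other.

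**Figure D1:**
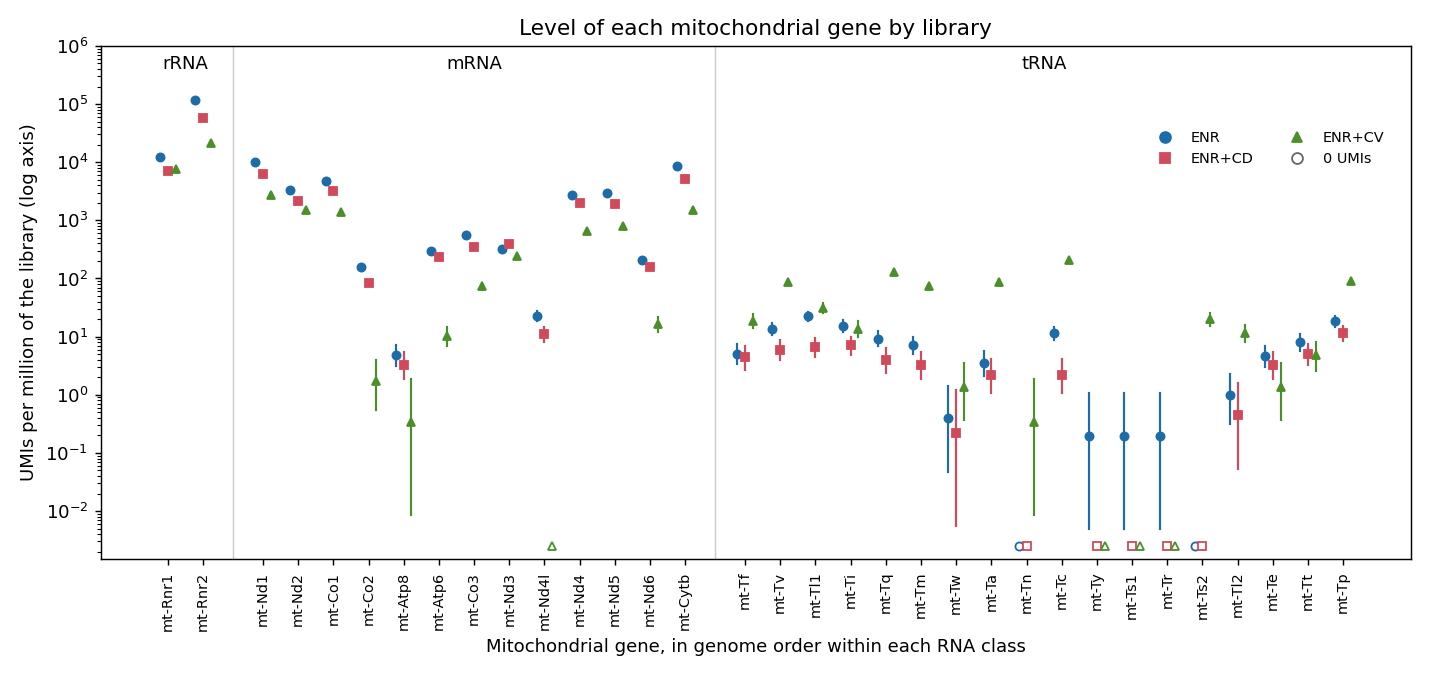
CPM (log axis) of each of the 33 mitochondrial genes, in genome order within the rRNAs, mRNAs and tRNAs, with 1 point per library (circle ENR, square ENR+CD, triangle ENR+CV), 95% Poisson intervals as lines and open symbols at the bottom for 0 UMIs. The ENR+CV triangles lie lowest for all 13 mRNAs and highest for the 9 tRNAs called higher, and mt-Nd3 is the mRNA at which the ENR+CD square lies above the ENR circle.

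The rRNAs made up 79.3%, 74.7% and 75.1% of mitochondrial UMIs. The large-subunit rRNA mt-Rnr2 (chrM:1094-2675) was by far the most counted, at 118407, 57697 and 21555 CPM. It was 2.05-fold lower in ENR+CD (2.04 to 2.06) and 5.49-fold lower in ENR+CV (5.45 to 5.54) than in ENR. The small-subunit rRNA mt-Rnr1 (chrM:70-1024) stood at 12235, 7072 and 7662 CPM, with ENR 1.73-fold above ENR+CD and 1.60-fold above ENR+CV. For ENR+CV this direction turned with depth: in cells below 2000 UMIs mt-Rnr1 was at 17737 CPM in ENR+CV and 11546 in ENR, a ratio of 1.54, and in cells of 4000 or more it was at 4018 and 12672. mt-Rnr2 was lower in the shallow ENR+CV cells too, at 0.371 of ENR. The 2 rRNAs therefore differed in ENR+CV: mt-Rnr1 was 9.37% of rRNA UMIs in ENR (9.30 to 9.44), 10.9% in ENR+CD but 26.2% in ENR+CV (25.9 to 26.5). The genes are neighbors on the same strand, with only the gene of mt-Tv between them.

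Complex I has 7 subunits encoded here. mt-Nd1 was the most counted mRNA of each library, at 10231, 6354 and 2688 CPM, and it held 30.05%, 29.01% and 30.2% of mitochondrial mRNA UMIs. mt-Nd2 was at 3301, 2192 and 1489 CPM, mt-Nd4 at 2690, 2026 and 653, and mt-Nd5 at 2963, 1889 and 802. These 4 genes were 1.33- to 1.61-fold lower in ENR+CD and 2.22- to 4.12-fold lower in ENR+CV than in ENR. The ENR+CV differences depended on what was counted. In reads, the levels of mt-Nd1, mt-Nd2, mt-Nd4 and mt-Nd5 in ENR+CV were 0.0802, 0.133, 0.0897 and 0.0973 of those in ENR. In UMIs of cells below 2000 they were 0.571, 0.888, 0.468 and 0.716, of which only that of mt-Nd4 passed 2-fold. mt-Nd2 had the smallest difference of the 4 in ENR+CV, and its part of the mRNA UMIs was 9.69%, 10.01% and 16.7%.

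mt-Nd3 behaved unlike the other mRNAs. Its level was 327, 395 and 244 CPM. It was the one mRNA with a ratio of ENR+CD over ENR above 1 (1.21, 1.13 to 1.29), and that ratio was 1.31 outside the Defa genes and 1.04 when reads were counted in place of UMIs. It was also the only mRNA not called lower in ENR+CV, where it was 1.34-fold under ENR (1.23 to 1.46). In cells below 2000 UMIs its ratio of ENR+CV over ENR was 0.966.

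mt-Nd4l was rare, with 115, 50 and 0 UMIs, which is 2.05-fold lower in ENR+CD and at least 22.1-fold lower in ENR+CV at a floor of 3 UMIs. mt-Nd6, the only mRNA read from the other strand, had 1072, 705 and 48 UMIs, or 210, 155 and 16.3 CPM. It was 12.9-fold lower in ENR+CV than in ENR (9.66 to 17.6), against 1.35-fold in ENR+CD.

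mt-Cytb, the catalytic cytochrome b of complex III, came second among the mRNAs, with 8563, 5064 and 1527 CPM. It was 1.69-fold lower in ENR+CD (1.66 to 1.72) and 5.61-fold lower in ENR+CV (5.44 to 5.78). The latter ratio, ENR+CV over ENR, was 0.0720 in reads and 0.370 in cells below 2000 UMIs. Its part of mitochondrial mRNA was 25.1%, 23.1% and 17.2%, so that in ENR+CV mt-Cytb and mt-Nd2 were close.

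Complex IV has its catalytic subunits from here. mt-Co1 was at 4734, 3156 and 1393 CPM, or 0.667 and 0.294 of its level in ENR for the latter 2. For ENR+CV this became 0.121 in reads and 0.748 in cells below 2000 UMIs. mt-Co3 was at 555, 344 and 73.8 CPM, 1.61-fold and 7.52-fold lower, and 0.2495 of ENR for ENR+CV in reads. mt-Co2 had 806 UMIs in ENR and 378 in ENR+CD but 5 in ENR+CV. In UMIs this is 93.1-fold lower in ENR+CV than in ENR (39.7 to 288). No other mitochondrial gene with UMIs in each library had a wider gap between these libraries. The ratio of ENR+CV over ENR for mt-Co2 was 0.0107 in UMIs, 0.0212 in reads and 0.0311 in cells below 2000 UMIs.

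Complex V has 2 subunits from here, and their genes overlap. mt-Atp6 had 1488, 1043 and 30 UMIs, or 292, 230 and 10.2 CPM. It was 1.27-fold lower in ENR+CD (1.17 to 1.38) and 28.6-fold lower in ENR+CV (19.98 to 42.6). mt-Atp8 had 25, 15 and 1 UMIs, a ratio of 14.4 between ENR and ENR+CV with an interval of 2.36 to 593.

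Among the mRNAs with UMIs in each library, the 3 with the highest ratios of ENR over ENR+CV, mt-Co2, mt-Atp6 and (with a wide interval) mt-Atp8, lie with mt-Nd4l between mt-Co1 and mt-Nd4 on the chromosome. This order is that of UMIs. In reads, ENR+CV over ENR was 0.0212 for mt-Co2, 0.0664 for mt-Atp6 and 0.208 for mt-Atp8, the last above mt-Cytb at 0.0720 and mt-Nd1 at 0.0802. The 6 mRNAs there (mt-Co2, mt-Atp8, mt-Atp6, mt-Co3, mt-Nd3 and mt-Nd4l) held 3.99%, 4.87% and 3.71% of mitochondrial mRNA UMIs. The intervals of this part overlapped for ENR (3.90 to 4.09) and ENR+CV (3.48 to 3.95). In ENR+CV mt-Nd3 alone had 718 of the 971 UMIs.

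The same stretch stood apart by its reads. In ENR its 6 mRNAs had 1.75 reads per UMI against 26.9 for the other 7 mRNAs, in ENR+CD 2.17 against 29.6, and in ENR+CV 2.05 against 6.05. In ENR, mt-Co2 had 1.06 reads per UMI, mt-Co3 1.07, mt-Atp6 1.08, mt-Atp8 exactly 1, mt-Nd4l 1.75 and mt-Nd3 3.86. By contrast mt-Nd1 had 39.3, mt-Nd2 23.8, mt-Cytb 23.2, mt-Nd5 21.6, mt-Nd4 20.9, mt-Co1 16.3 and mt-Nd6 5.57. Nearly each UMI of mt-Co2, mt-Co3 and mt-Atp6 thus rested on a single read in a library with 15.3 reads per UMI.

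The mRNA genes of this stretch are also those with the nuclear copies shown above. Of the 50-base windows of each gene, the length of the read that was aligned, 100% of those of mt-Co2 were identical to some nuclear transcript of the annotation, 99.9% of mt-Co3, 99.5% of mt-Atp6, 98.8% of mt-Nd4l and 98.0% of mt-Nd3. The share was 62.2% for mt-Nd4, 51.1% for mt-Co1, 8.19% for mt-Nd2, 7.61% for mt-Nd5 and 1.04% for mt-Rnr2. It was 0% for mt-Nd1, mt-Cytb, mt-Nd6, mt-Rnr1, each tRNA and mt-Atp8. mt-Atp8 lies where no transcript is annotated between the nuclear copies of mt-Co2 and mt-Atp6, and the genomic sequence in between was not examined. The pseudogenes were not analysed here, and the part of these copies in the counts was not tested. Summed, the 5 genes with over 90% of windows shared gave a ratio of ENR+CD over ENR of 0.785 (0.757 to 0.815) against 0.637 (0.632 to 0.642) for the other 8, and of ENR+CV over ENR of 0.243 (0.227 to 0.260) against 0.262 (0.259 to 0.265). Within the 5, the ratio of ENR+CV over ENR ran from 0.0107 for mt-Co2 to 0.746 for mt-Nd3, with mt-Nd4l at 0 UMIs in ENR+CV. Most of their summed ENR+CV UMIs were the 718 of mt-Nd3. The levels of these 5 genes and of mt-Atp8 are therefore given as counted, and their fold differences as uncertain.

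**Figure D2:**
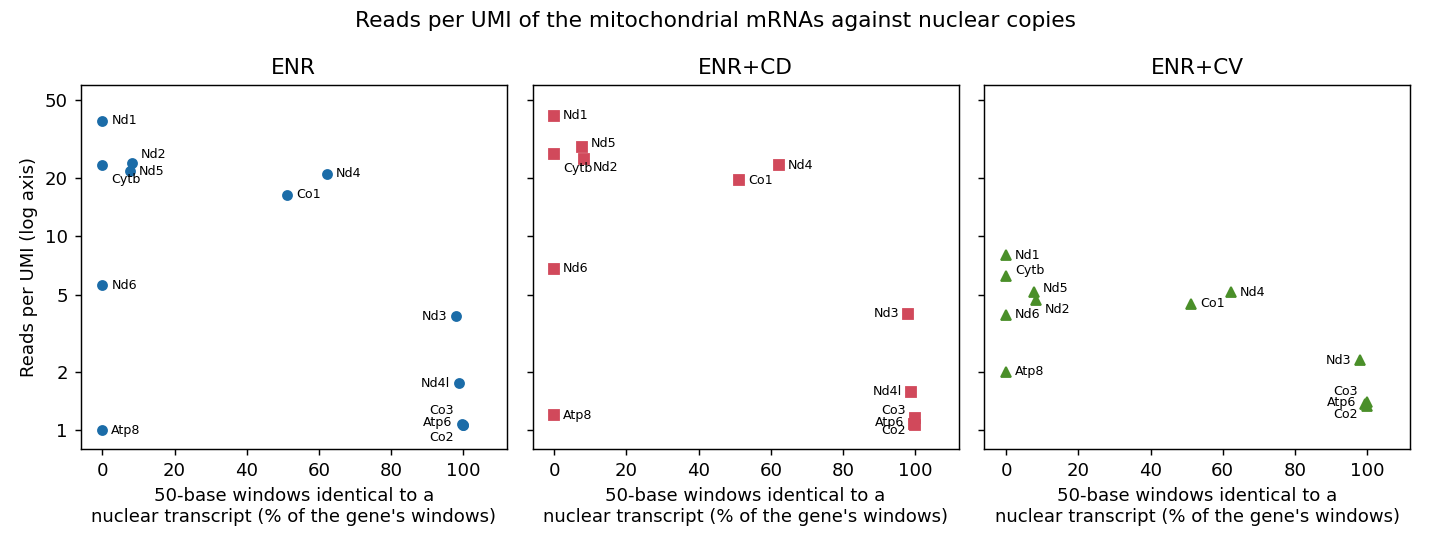
Reads per UMI (log axis) of each mitochondrial mRNA against the percentage of its 50-base windows identical to a nuclear transcript, 1 panel per library and 1 point per gene with at least 1 UMI, without error bars. The 5 genes at 98.0% or more sit at the bottom right, without mt-Nd4l in ENR+CV where it had 0 UMIs, and mt-Nd3 is highest among them, while mt-Nd1, at 0%, tops each panel and mt-Atp8, also at 0%, lies low.

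Library ENR+CV also differed in the reads of the remaining mRNAs. mt-Nd1 had 7.995 reads per UMI there against 39.3 in ENR and 41.6 in ENR+CD, and mt-Cytb 6.26 against 23.2 and 26.5. All mitochondrial mRNAs together had 5.90 reads per UMI in ENR+CV, below the 10.2 of that library, whereas in ENR they had 25.9 against 15.3 and in ENR+CD 28.3 against 18.3. The rRNAs were at 20.6, 25.9 and 10.96 reads per UMI, and the tRNAs at 3.66, 4.71 and 1.71. Counted in reads, the mitochondrial ratio of ENR+CV over ENR was 0.157 in place of 0.236.

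Of the 18 tRNA genes, 9 were higher in ENR+CV than in ENR, 4 were tested without a call and 5 had too few UMIs. mt-Tc, for cysteine, had 58, 10 and 601 UMIs, or 11.4, 2.20 and 204 CPM. It was 17.9-fold higher in ENR+CV than in ENR (13.7 to 23.9). mt-Ta had 18, 10 and 255 UMIs and was 24.5-fold higher (15.2 to 42.1), and mt-Tq had 47, 18 and 380 and was 14-fold higher (10.3 to 19.4). These 3 are encoded on the strand opposite to most mRNAs, as is mt-Tp, with 93, 52 and 265 UMIs and a ratio of 4.93 (3.88 to 6.32).

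On the strand of most mRNAs, mt-Tm had 36, 15 and 218 UMIs and was 10.5-fold higher in ENR+CV than in ENR (7.34 to 15.4), and mt-Tv had 70, 27 and 258 and was 6.38-fold higher (4.88 to 8.44). mt-Tl1, for leucine, was the most counted tRNA of ENR, with 114 UMIs, against 30 for ENR+CD and 92 for ENR+CV. Its ratio of ENR+CV over ENR was 1.40 (1.05 to 1.86) by UMIs and 0.831 by reads, so that its direction was not settled. The other 11 tRNAs had at most 78 UMIs in any library. Of these, mt-Tf, mt-Tl2 and mt-Ts2 were called higher in ENR+CV, mt-Ts2 with 59 UMIs against 0 in ENR and 0 in ENR+CD, at least 34.1-fold. From ENR to ENR+CD, 5 tRNAs were lower, with ratios from 0.194 for mt-Tc to 0.461 for mt-Ti, each from 10 to 32 UMIs in ENR+CD.

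By strand, the 8 tRNAs opposite to most mRNAs summed to 47.5 CPM in ENR (41.7 to 53.9), 23.1 in ENR+CD (18.9 to 28.0) and 512 in ENR+CV (486 to 538). The 10 on the strand of most mRNAs summed to 73.2 CPM, 33.1 and 263. The former were thus the smaller sum in ENR and ENR+CD and the larger in ENR+CV. mt-Nd6, the mRNA of the same strand as the first 8, went the other way, from 210 CPM in ENR to 16.3 in ENR+CV. The strand setting of the counting is not given in the sources used here, so reads of a tRNA and of RNA from the opposite strand at the same place may not be separated. Between mt-Co1 and mt-Nd4, the annotation has 5 tRNAs, of which mt-Ts1 and mt-Tr were in the table, with 2 UMIs over all libraries, whereas the 16 tRNAs elsewhere summed to 3148.

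Another group of short RNAs was high in ENR+CV. The 170 short structural RNA genes held 0.511% of its UMIs, against 0.137% in ENR and 0.0592% in ENR+CD. They were picked by symbol: small nucleolar and like RNAs, ribosomal RNAs of the cytosol and others such as mmu-mir-6236. Among them, mmu-mir-6236 had 774 UMIs in ENR+CV against 6 in ENR and 3 in ENR+CD, and n-R5-8s1 had 779 against 0 and 0. These RNAs moved with the mitochondrial tRNAs between libraries, and their part in the tRNA result was not tested.

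The mitochondrial share varied widely among the cells of each library. The median cell had 14.7%, 7.19% and 2.41%, and the mean was 16.9 ± 9.43% (SD over 2545 cells), 8.76 ± 6.18% (2383 cells) and 5.53 ± 7.87% (985 cells). The middle 50% of cells ran from 10.1 to 21.04% in ENR, from 4.997 to 10.4% in ENR+CD and from 1.29 to 6.02% in ENR+CV. Cells under 5% were 2.83% of ENR (2.22 to 3.55, Clopper-Pearson), 25.1% of ENR+CD (23.4 to 26.9) and 72.2% of ENR+CV (69.3 to 74.96). Cells at 20% or more were 28.3%, 4.83% and 5.89%. The ENR+CV distribution was thus low for most cells with a long tail, and its mean was over its median by more than in either other library.

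**Figure D3:**
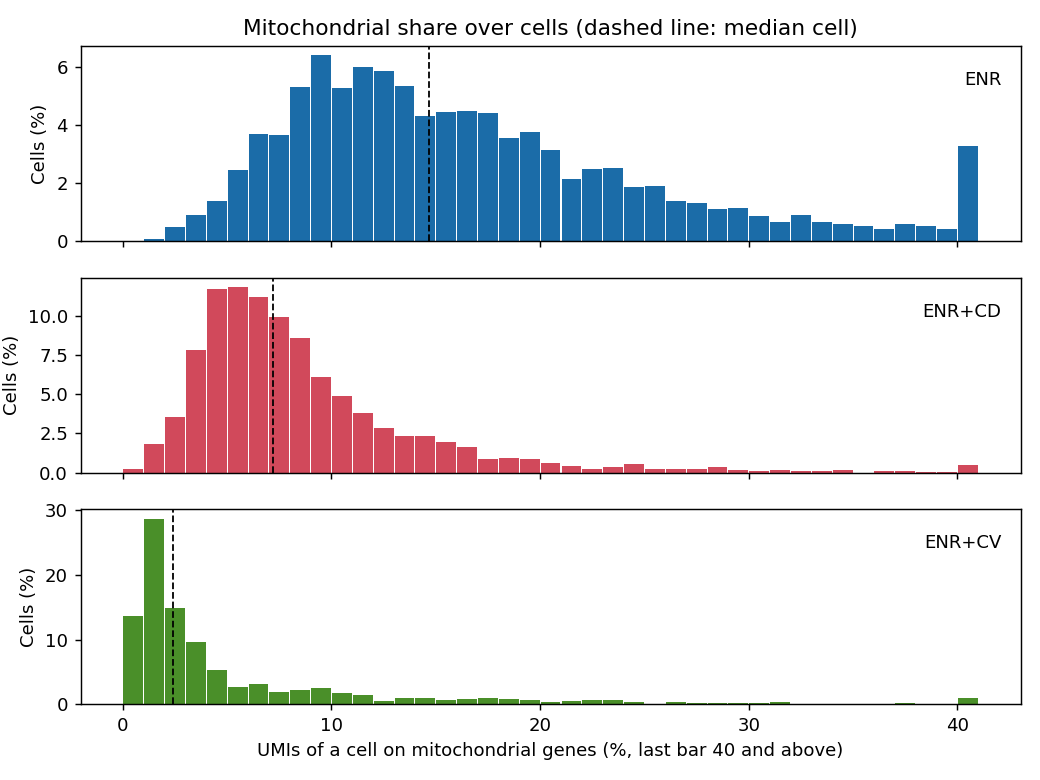
Percentage of each library's kept cells by the percentage of the cell's UMIs on mitochondrial genes, in bars 1 point wide with the last bar for 40% and above, and a dashed line at the median cell. The medians fall at 14.7% (ENR), 7.19% (ENR+CD) and 2.41% (ENR+CV), and the ENR+CV panel has most cells in its leftmost bars with a tail up to 67.5%.

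In ENR and ENR+CD the mean mitochondrial UMIs of a cell went up with its depth. In ENR+CV the mean hardly did, while the median rose by less than in the other libraries. The barcodes of the single-library tables were grouped by total UMIs for this, without the minimum of genes. From those with 1000 to 1499 UMIs to those with 6000 to below 8000, the mean total was 5.77-, 5.72- and 5.70-fold higher in ENR, ENR+CD and ENR+CV. The mean mitochondrial UMIs per cell went from 216 to 1049 in ENR, from 107.5 to 624 in ENR+CD and from 127 to 135 in ENR+CV, which is 4.86-, 5.80- and 1.06-fold. In ENR+CV the mRNAs gave a mean of 28.0 UMIs per cell in the shallow cells and 24.9 in the deep cells, the rRNAs 97.2 and 106, and the tRNAs 1.39 and 4.23. The medians of ENR+CV rose, from 65 to 98.5 for all mitochondrial UMIs, from 51 to 74.5 for rRNA and from 11 to 20 for mRNA. Over all mitochondrial genes the median went from 185 to 851 in ENR and from 89 to 528 in ENR+CD. Since the bins were set by total UMIs, the sum of other transcripts of ENR+CV had to be higher in the deep cells. Its parts differed, with 7.36-fold for ribosomal protein genes of the cytosol, 2.34-fold for Malat1 and 1.36-fold for the Defa genes, with 0.847-fold for short structural RNAs. In ENR the same groups were at 5.65-, 4.63-, 2.05- and 4.21-fold.

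As shares, the shallow cells had 17.8%, 8.86% and 10.5% mitochondrial UMIs, and the deep cells 14.9%, 8.998% and 1.96%. The order of ENR+CD and ENR+CV by pooled share therefore depended on the depth of the cells, while ENR was highest in both. By the median cell of the shallow bin, the order was 185, 89 and 65 mitochondrial UMIs. Below the minimum of 1000 UMIs, barcodes with fewer than 500 UMIs had 21.2%, 12.4% and 18.1%. Depth and mitochondrial share correlated across cells with Spearman's rho of -0.07, -0.06 and -0.43, and rRNA and mRNA share with 0.44, 0.51 and 0.81, given as descriptions since both share the cell's total.

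**Figure D4:**
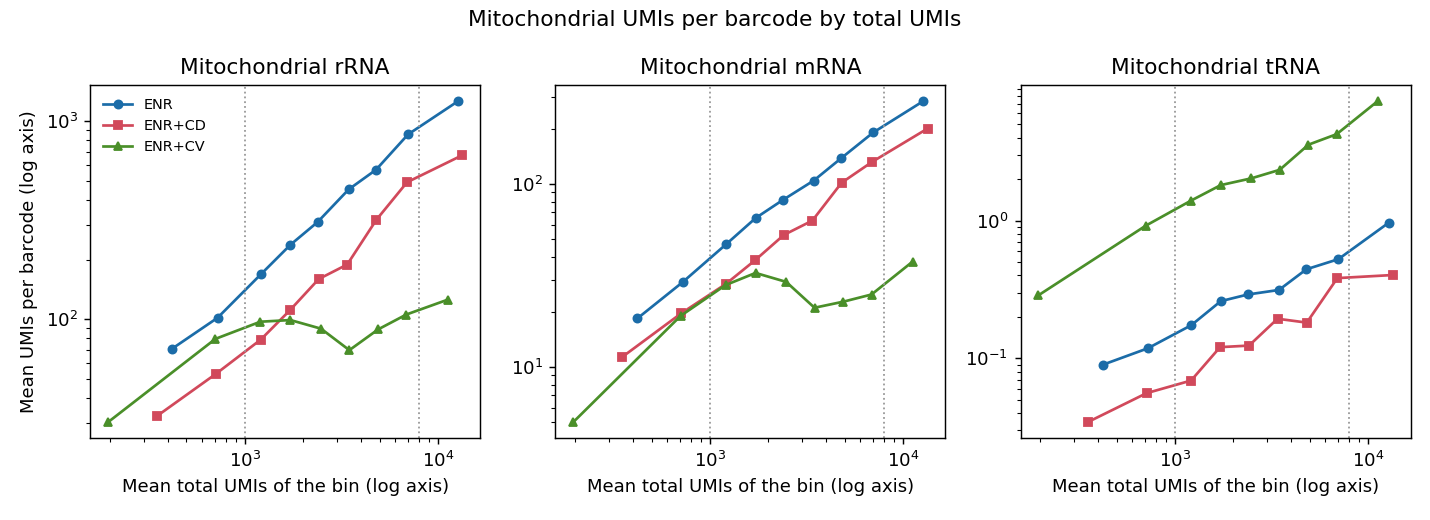
Mean UMIs per barcode on the mitochondrial rRNAs, mRNAs and tRNAs (log axes) against the mean total UMIs of the barcodes in a bin, for ENR (circles), ENR+CD (squares) and ENR+CV (triangles), with dotted lines at the cell limits of 1000 and 8000 UMIs and no error bars. The ENR and ENR+CD lines climb throughout for rRNA and mRNA. The ENR+CV lines of these classes do not climb steadily between the limits, with 97.2 rRNA UMIs in the first bin, 69.9 at 3000 to 3999 and 106 in the last. The tRNA line of ENR+CV climbs and lies on top.

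When the cells of a library were split by mitochondrial share into 5 groups of equal size, the mix of RNA classes shifted along the order. In ENR the rRNA UMIs per mRNA UMI went from 2.38 in the lowest group to 5.24 in the highest, and in ENR+CD from 1.75 to 4.03. ENR+CV had 3.28 in its lowest group, 3.70 to 3.79 in the middle groups and 2.95 in its highest. The tRNAs were at 374 CPM in the lowest and 1577 CPM in the highest group of ENR+CV, above each group of ENR (at most 188 CPM). Since the split used the share itself, these values are a description.

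Other transcripts moved with this order. Malat1, a long RNA retained in the nucleus, was at 2739 CPM in the lowest and 4978 in the highest group of ENR, 6504 and 14134 in ENR+CD, and 3104 and 9470 in ENR+CV. The median cell of the highest group of ENR+CV had 1423 UMIs and 775 genes, against 3503 UMIs and 1966 genes in the lowest. Short structural RNAs held 2.14% of UMIs in that highest group and 0.133% in the lowest. In ENR+CD the Defa genes went the other way, from 16.2% in the lowest to 5.70% in the highest group. The part of these in the spread of mitochondrial share was not tested.

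**Figure D5:**
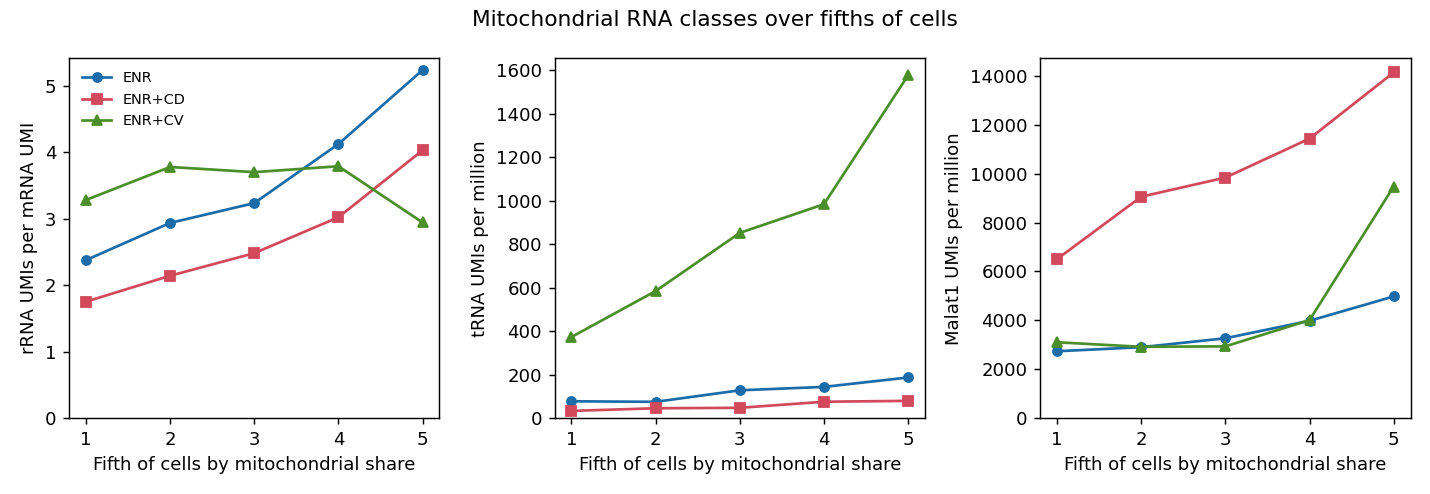
Mitochondrial rRNA UMIs per mRNA UMI (left), mitochondrial tRNA CPM (middle) and Malat1 CPM (right) in 5 equal groups of cells ordered from the lowest to the highest mitochondrial share, for each library, with no error bars. The ENR and ENR+CD lines climb in the left panel, from 2.38 to 5.24 and from 1.75 to 4.03, the ENR+CV line does not, and Malat1 is highest in the last group of all libraries.

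Cells rich in Defa or goblet transcripts had lower mitochondrial shares in ENR and ENR+CD. The 10% of ENR cells with the highest percentage of UMIs on Defa genes had 13.9% mitochondrial UMIs outside the Defa genes, against 17.3% in the rest, and in ENR+CD 6.81% against 9.997%. Cells high in goblet genes (Muc2, Tff3, Agr2, Fcgbp and Zg16) had 13.2% against 16.9% in ENR and 6.91% against 8.94% in ENR+CD. For each list only its own UMIs were left out of the total. Paneth products other than Defa thus stayed in the total for cells high in Defa genes, and Defa UMIs in that for cells high in goblet genes. The part of such products in these lower shares was not tested. These groups are ranges of a score and not cell types. The study lists Zg16, a gene of the goblet list, among those enriched in Paneth cells in vivo. In ENR+CD 2268 cells had a UMI on the goblet list. Cells high in stem cell genes (Lgr5, Olfm4, Ascl2, Slc12a2 and Smoc2) were close to the rest in ENR, 17.1% against 16.4%, and above it in ENR+CD, 11.6% against 8.38%. Cells high in cycling genes had 19.2% against 16.2% in ENR and 10.2% against 8.51% in ENR+CD.

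Enterocyte genes went with 18.2% against 16.4% in ENR and 9.65% against 8.57% in ENR+CD, and enteroendocrine genes with 17.2% against 16.4% and 9.94% against 8.56%. The 10 genes of dissociation stress, such as Fos and Jun, went with 19.4% against 16.2% in ENR, 9.50% against 8.61% in ENR+CD and 6.67% against 3.65% in ENR+CV. In ENR+CV the 10% of cells highest in Defa genes had 6.69% against 3.70% and those highest in enterocyte genes 7.26% against 3.63%, but these cells were shallow, with medians of 1575 and 1640 UMIs against 2635 and 2650 in the rest. Goblet, stem and cycling genes gave 4.42% against 3.85%, 3.75% against 3.91% and 3.99% against 3.88%, and enteroendocrine genes had UMIs in only 49 cells. The part of depth in the ENR+CV values was not tested, and these lists describe cells of 1 library each.

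In CPM, the summed nuclear partners of the mitochondrial mRNAs were lower than in ENR in ENR+CD. In ENR+CV they were higher, by about as much as the median gene. Of 79 nuclear subunits of oxidative phosphorylation, 78 had enough UMIs. From ENR to ENR+CD, 0 were higher and 11 (14.1%) lower, against 10.8% and 9.35% of all genes, with a median log2 ratio of -0.52 against -0.01. From ENR to ENR+CV 6 (7.69%) were higher and 1 (1.28%) lower, both under the 15.9% and 5.80% of all genes, with a median of 0.33 against 0.33. Their summed level was 39246, 26460 and 50791 CPM. ENR+CV thus had 1.29-fold more nuclear subunit UMIs than ENR (1.29 to 1.30) beside 3.83-fold fewer mitochondrial mRNA UMIs. In ENR+CD the 2 moved by like amounts, 0.674 of ENR for the nuclear subunits (0.669 to 0.679) and 0.643 for the mitochondrial mRNAs.

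By complex, the summed ratio of ENR+CD over ENR was 0.760 for complex I, 0.520 for complex II, which has no mitochondrially encoded subunit, 0.570 for complex III, 0.638 for complex IV and 0.679 for complex V. For ENR+CV over ENR it was 1.31, 1.03, 1.52, 1.198 and 1.28, beside the median gene ratio of 1.31 given above. Among the most counted genes, Cox4i1 of complex IV had 1754, 1091 and 2493 CPM. Uqcrq of complex III had 1455, 637 and 1948 CPM, and Atp5b, the catalytic subunit of complex V, 1208, 577 and 1436. Ndufa4, which was counted in the complex I sum and not in that of complex IV, had 1048, 957 and 1251 CPM. Its ratio of ENR+CD over ENR was 0.913. Sdhb of complex II was at 386, 200.1 and 417 CPM. Each of these was lowest in ENR+CD and highest in ENR+CV. Not all of the most counted genes were highest in ENR+CV. Sdhd (306, 168 and 263 CPM) and Sdha (217, 111 and 194) of complex II were highest in ENR. Ndufa7 of complex I had 576, 480 and 566 CPM, with overlapping intervals for ENR and ENR+CV.

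Genes that copy, transcribe and process mitochondrial DNA and RNA had 35 with a row, from 42 listed. Of these, 2 (5.71%) were higher and 0 lower in ENR+CV, against 15.9% and 5.80% of all genes, with a median log2 ratio of 0.05 against 0.33. In ENR+CD 0 were higher and 6 (17.1%) lower, against 10.8% and 9.35%, with a median of -0.46 against -0.01. Slirp, which binds mitochondrial mRNAs, had 282, 240 and 316 CPM, and Ssbp1, which coats single-stranded mitochondrial DNA, had 123, 122 and 130. Hsd17b10, a part of the enzyme that trims the start of mitochondrial tRNAs, had 131, 98.9 and 202 CPM, and Rexo2, an exonuclease for short RNAs, 92.8, 97.2 and 99.9. Of 76 mitochondrial ribosomal protein genes tested, 0 were higher and 5 (6.58%) lower in ENR+CD, and 2 (2.63%) higher and 0 lower in ENR+CV, each share below that of all genes. Their median log2 ratio was -0.51 in ENR+CD and 0.14 in ENR+CV. Their sum was 8737, 6183 and 10169 CPM, so in CPM these mRNAs and the mitochondrial rRNAs were ordered differently over the libraries. The summed ratio of ENR+CV over ENR was 1.16, under the median gene ratio of 1.31. Proteins were not measured here.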

How the data were processed

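Seq-Well libraries were demultiplexed with bcl2fastq, aligned to mm10 by a Drop-seq pipeline (the submitters also name STAR and Seurat) and collapsed by UMI. For tool versions, gene annotation and strand setting, nothing was given in the sources used here. The authors deposited raw UMI counts of all merged cells with 1000 or more UMIs, and raw UMI and read counts per library. All values here come from these deposited counts. Cells with at least 1000 and fewer than 8000 UMIs and at least 400 genes were kept, which is 1 more in ENR and in ENR+CD than the study states. No doublet caller was run, and cells were not clustered.

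UMIs were summed per library and scaled to the library total (CPM). CPM has exact Poisson intervals, ratios exact binomial intervals and shares of cells Clopper-Pearson intervals, all at 95% and for counting error only, and the precision rests on 2942252 to 5095089 UMIs per library. A count of 3 UMIs was the floor for bounds. With 1 library per condition there was no test. A call needed 2-fold, separate intervals and 20 UMIs in the pair. The rule was tried on simulated Poisson counts, which hold no spread between cells, arrays or cultures and so say nothing of it. The 33 genes and all lists were chosen with earlier results of these data known. Named were all mRNAs and rRNAs, tRNAs with 100 or more UMIs in a library (mt-Tf, mt-Ti, mt-Tl2 and mt-Ts2 were named after their values were seen), and the most counted nuclear genes of each list, of which some are printed. Windows of 50 bases and coordinates are from GENCODE vM21 (GRCm38). Other denominators, cell limits, reads, scaling and library names were tried, and cells below 2000 UMIs were added after seeing the data. Python 3.11.15, NumPy 2.4.6, SciPy 1.17.1, pandas 2.3.3 and matplotlib 3.10.9 were used.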

Additional observations from a re-analysis of the deposited data

How the results depend on the processing

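The share ratio of ENR+CD over ENR (0.526) stayed under 1 in each setting. It was 0.521 with all cells of the merged table, 0.542 in cells with 2000 or more UMIs, 0.571 outside Defa genes, 0.627 outside Paneth products, 0.538 in reads, 0.541 scaled to the median gene, 0.519 with cells weighted equally and 0.236 with the libraries named by their attached samples. In the same order that of ENR+CV over ENR (0.236) was 0.211, 0.176, 0.230, 0.226, 0.157, 0.180, 0.327 and 0.526, and that of ENR+CD over ENR+CV (2.23) was 2.47, 3.08, 2.49, 2.78, 3.42, 3.04, 1.59 and, reversed, 0.448. The tRNA ratio of ENR+CV over ENR (6.42) was 4.49 in reads, 4.90 scaled and 0.466 with attached names. Genes lower in ENR+CD than in ENR (7) numbered 2 in cells with 2000 or more UMIs, 3 outside Defa genes, 2 outside Paneth products, 14 at 1.5-fold, 2 at 3-fold and 13 with attached names, which also gave 9 higher in place of 0, and for ENR+CV 0 higher in place of 9 and 7 lower in place of 13. Genes higher in ENR+CD than in ENR+CV (11) numbered 7 at 3-fold. Attached names also reversed single genes. The ratios of ENR+CD over ENR became 17.9 for mt-Tc, 14 for mt-Tq, 6.38 for mt-Tv and 1.40 for mt-Tl1, and those of ENR+CV over ENR became 0.624 for mt-Ta, 0.194 for mt-Tc, 0.864 for mt-Tf, 0.449 for mt-Tl2, 0.468 for mt-Tm, 0.628 for mt-Tp, 0.430 for mt-Tq and 0.433 for mt-Tv. In cells below 2000 UMIs, a setting added after seeing the data, the share ratios were 0.509 (ENR+CD over ENR), 0.498 (ENR+CV over ENR) and 1.02 (ENR+CD over ENR+CV), the tRNA ratio was 7.64, 8 genes were lower in ENR+CV than in ENR and 5 higher in ENR+CD than in ENR+CV. Single-gene ratios were followed under all settings only for the comparisons with ENR. In these, under the settings other than attached names, 0 called genes reversed, while uncalled ones turned: for ENR+CV over ENR mt-Rnr1 (1.54) and mt-Ti (2.28) in cells below 2000 UMIs and mt-Tl1 (0.831) in reads, and for ENR+CD over ENR mt-Ta (1.25) and mt-Tf (1.15) in reads and mt-Tf (1.03) outside Paneth products. For ENR+CD over ENR+CV, genes called higher did turn in cells below 2000 UMIs. There mt-Co1 was at 3276 CPM in ENR+CD against 3967 in ENR+CV, and mt-Nd5 at 1986 against 2277. The cause of these changes was not tested, beyond what each setting removes.

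No paired analysis was possible because each condition has 1 library, and for the same reason no replicate was left out. Rare genes (mt-Atp8, mt-Nd4l and most tRNAs) rest on few UMIs, and the 5 mRNAs with over 90% of windows shared on few reads per UMI.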
